A study of Ovis aries with 7 samples.

Results

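AHSG, BRDT, TMPRSS11A and PKD1L3 are 4 of the 26479 features counted in single nuclei of the sheep striatum, and all 4 gave few transcripts. They were chosen by their summed UMI counts in an earlier analysis of these same files, which had them lower in oligodendrocytes of transgenic than of control libraries, and for some of the 4 also in oligodendrocyte precursor cells (OPCs) or astrocytes. The values of that contrast chose the genes, so in those 3 classes the values are given here as a description with no test. Tests were confined to 6 other classes of nuclei, which the choice did not use. Those nuclei come from the same 7 libraries, so they are not independent animals. In the files the features are ENSOARG00020000594 (AHSG), ENSOARG00020008525 (BRDT), ENSOARG00020000446 (TMPRSS11A) and ENSOARG00020012292 (PKD1L3).

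The study asked how transcription differs by cell type in OVT73 sheep before any striatal cell loss. OVT73 is a single transgenic line that carries the full-length human huntingtin cDNA with an expanded CAG repeat, driven by human sequence from immediately upstream of HTT, and the animals keep their own sheep HTT genes. The controls were wild-type sheep of the same flock. All 12 sheep were 5 years old, with 6 in each group and both sexes in each. Nuclei of the frozen anterior striatum were loaded as 3 OVT73 libraries of 2 sheep each and 4 control libraries, of which control libraries 1 and 2 held 1 sheep each and control libraries 3 and 4 held 2 each. Libraries are numbered here in the order of deposition. They are the replicates throughout, so n = 3 for OVT73 and n = 4 for control, and each SD is the spread between libraries.

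The 4 genes share no pathway, and each is best known from a tissue other than brain. AHSG encodes fetuin-A, a glycoprotein that liver cells secrete into blood plasma and that binds calcium phosphate. BRDT is the testis member of the BET family of bromodomain proteins, which bind acetylated histones, and male germ cells use it to reorganise chromatin. TMPRSS11A is a serine protease anchored in the cell membrane and known from epithelia. PKD1L3 is a large membrane protein of the polycystin family, described in taste receptor cells, where it pairs with the channel protein PKD2L1.

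The 7 files held 35272 barcodes and between 20887378 and 70473426 unique molecular identifiers (UMIs, each 1 captured transcript) per library, with OVT73 library 1 the deepest. After filtering, 32599 nuclei remained, with a library median of 1860 to 2562 UMIs per nucleus. Clustering and markers named 12 classes, among them 15136 oligodendrocyte-like, 2914 OPC-like, 2125 astrocyte-like, 2790 microglia-like, 2602 D1 and 2280 D2 medium spiny neuron-like (MSN-like), 318 eccentric MSN-like, 1289 neuroblast-like and 394 PV/Th interneuron-like nuclei. In the oligodendrocyte-like class the oligodendrocyte markers summed to between 12733 and 15528 CPM (UMIs scaled to the same total in each sum) in every library. These classes were rebuilt from the counts, so their borders may differ from the study's. In all, 159 barcode sequences occurred in more than 1 library. The feature named HTT, listed apart from the sheep gene, had 342, 63 and 27 UMIs in OVT73 and 1 to 6 in control, so every OVT73 library was above every control.

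The genes were scarce but differed in how scarce. AHSG gave 257 UMIs in 227 nuclei, TMPRSS11A 1570 UMIs in 1161 nuclei, BRDT 6001 UMIs in 3136 nuclei and PKD1L3 6121 UMIs in 4894 nuclei. No nucleus held more than 4 UMIs of AHSG, 5 of TMPRSS11A or 6 of PKD1L3, while 1 nucleus held 14 of BRDT. Such counts are compared below within a gene only, since 3′ counts carry no correction between genes.

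Each gene was found in a different set of cells. Oligodendrocyte-like nuclei held 82.5% of the AHSG UMIs but 14.6% of all UMIs. BRDT was neuronal: D1 MSN-like nuclei held 47.4% of its UMIs and D2 MSN-like nuclei 36.9%, against 32.1% and 28.0% of all UMIs. Oligodendrocyte-like nuclei held 1.65%. TMPRSS11A was spread over the oligodendrocyte lineage, astrocytes and neurons. Oligodendrocyte-like, OPC-like and astrocyte-like nuclei held 26.5%, 19.6% and 8.47% of its UMIs, against 14.6%, 5.50% and 3.29% of all UMIs. D1 MSN-like nuclei held 16.0% and D2 MSN-like nuclei 13.4% of its UMIs, below their shares of all UMIs. PKD1L3 had 49.6% of its UMIs in oligodendrocyte-like and 9.34% in astrocyte-like nuclei, where 3.29% of all UMIs lay.

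**Figure D1:**
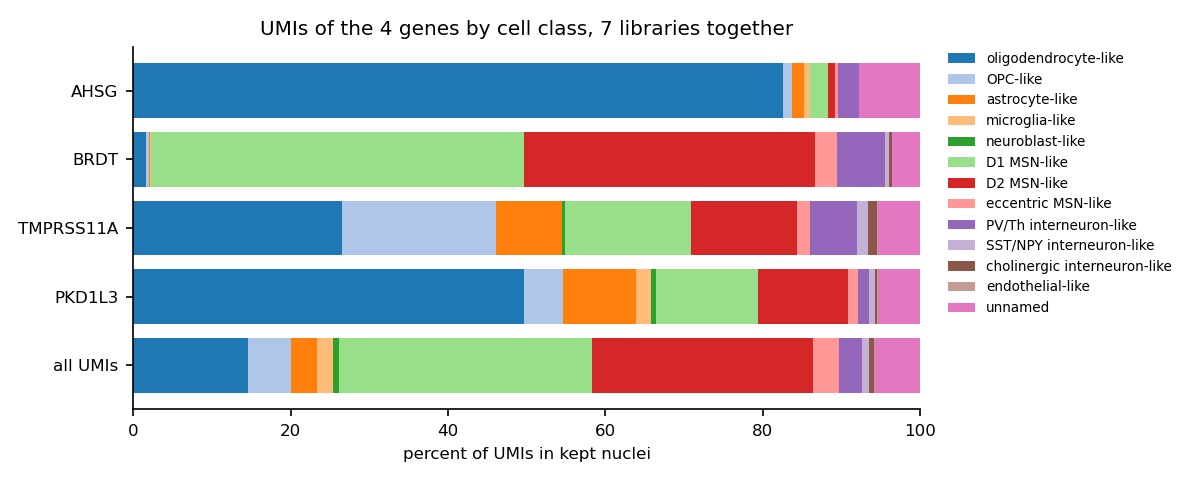
Share of each gene's UMIs by class of nuclei (percent of the gene's UMIs in kept nuclei), beside the share of all UMIs. AHSG lay mostly in oligodendrocyte-like nuclei (82.5%) and BRDT mostly in D1 and D2 MSN-like nuclei (47.4% and 36.9%), while TMPRSS11A and PKD1L3 were spread over glia and neurons.

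The order of classes within a gene was read from normalized CPM, the CPM of a gene in the summed nuclei of 1 class and library after TMM scaling. AHSG was higher in oligodendrocyte-like than in PV/Th interneuron-like nuclei, the next class, in 7 of 7 libraries (means over the 7 libraries 7.29 and 1.04). BRDT was highest in PV/Th interneuron-like nuclei (mean 64.1), above D1 MSN-like nuclei (46.6) in 7 of 7 libraries, while D1 and D2 MSN-like nuclei (43.8) kept their order in only 4 of 7. TMPRSS11A was highest in OPC-like nuclei (30.4) and above astrocyte-like nuclei (23.0) in 6 of 7 libraries. PV/Th interneuron-like (15.2) and oligodendrocyte-like nuclei (14.6) came next for TMPRSS11A, and these neighbours were in that order in 4 of 7. PKD1L3 was at like levels in oligodendrocyte-like (107) and astrocyte-like nuclei (98.2), with that order in 5 of 7 libraries, and microglia-like nuclei (30.4) were below astrocyte-like nuclei in all 7. OPC-like nuclei had 27.9 and D1, D2 and eccentric MSN-like nuclei had 12.2 to 13.5 normalized CPM of PKD1L3.

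AHSG, the plasma glycoprotein, was measured almost only in oligodendrocyte-like nuclei. OVT73 libraries 1 to 3 gave 20, 7 and 8 UMIs there, and control libraries 1 to 4 gave 13, 60, 61 and 43. Scaled to the UMIs of the class these were 2.07, 1.98 and 2.40 normalized CPM in OVT73 and 4.50, 13.98, 14.2 and 11.9 in control. The OVT73 libraries were close to each other and all below the controls, of which control library 1 was the lowest. The means were 2.15 ± 0.221 in OVT73 and 11.1 ± 4.56 in control, a fitted log2 difference of −2.39. Of all genes tested in this class, 3.14% had every OVT73 library below every control library. AHSG passed the filter on low counts through the control libraries, where it was higher.

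The UMIs of AHSG were concentrated in the ENPP6-led cluster, 1 of the 4 clusters of oligodendrocyte-like nuclei. ENPP6 is known as a marker of newly formed oligodendrocytes, but the leading genes of this cluster also included CCDC152, SLC5A11, GHR and MOBP. The stage of its nuclei was not tested. This cluster gave 139 of the 212 UMIs (65.6%) and 18.7% of the UMIs of the class. CPM within clusters are given without TMM scaling, here and below. They are a description of genes chosen on this contrast, with no share over all genes for single clusters. In this cluster AHSG was at 6.91, 12.7 and 3.54 CPM in OVT73 and 17.1, 41.4, 34.6 and 57.2 in control, with no overlap. These rest on 13, 5 and 2 UMIs in OVT73 and 7, 39, 39 and 34 in control. The cluster led by CCDC152 and GHR held another 54 AHSG UMIs and also showed no overlap, at 0.64 to 1.77 CPM in OVT73 and 4.50 to 15.2 in control. The OVT73 values there come from 5, 1 and 2 UMIs. In the OPALIN-led cluster (10 UMIs) the groups overlapped and their means were level, at 1.79 CPM in OVT73 and 1.73 in control. They also overlapped in cluster 5 (9 UMIs), at 0.77 and 1.84 CPM. The ENPP6-led cluster made up 8.65% to 15.9% of oligodendrocyte-like nuclei in OVT73 and 11.3% to 21.0% in control. With equal weight to each cluster AHSG was at 2.90 ± 0.683 CPM, without TMM scaling, in OVT73 and 12.5 ± 4.68 in control, again without overlap.

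Outside oligodendrocyte-like nuclei AHSG was near the limit of these counts. OPC-like nuclei gave 3 UMIs in all and astrocyte-like nuclei 4, of which 3 came from OVT73 library 1. Microglia-like nuclei gave 2 UMIs, in 0.0717% of nuclei at a median of 1417 UMIs, while 1.24% of oligodendrocyte-like nuclei had an AHSG UMI at a median of 1768. Neuroblast-like nuclei gave 0, which allows up to 1.70 CPM. PV/Th interneuron-like nuclei gave 7 UMIs, in 1.52% of nuclei. D1 and D2 MSN-like nuclei gave 6 and 2 UMIs at medians of 22440 and 23090 UMIs per nucleus, or 0.086 and 0.033 CPM. Whether AHSG was lower in OVT73 outside oligodendrocytes could not be read from so few UMIs.

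BRDT, the bromodomain protein of male germ cells, was a neuronal gene in these libraries, and its value in oligodendrocyte-like nuclei rests on 99 UMIs. These were 5, 3 and 1 UMIs in OVT73 libraries 1 to 3 and 20, 47, 18 and 5 in control libraries 1 to 4. In normalized CPM the OVT73 libraries had 0.52, 0.85 and 0.30 and the controls 6.93, 10.9, 4.20 and 1.38. The groups did not overlap, although control library 4 lay close to OVT73 library 2 and control library 2 alone gave 47 of the 90 control UMIs. Means were 0.556 ± 0.277 and 5.86 ± 4.08, a fitted log2 difference of −3.36. BRDT too passed the filter in this class through the control libraries. Leaving out control library 1, control library 2 or control library 3 removed BRDT from the genes that passed.

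In the other 2 glial classes of the choice BRDT had more UMIs in OVT73, but OVT73 also had more nuclei there. OPC-like nuclei gave 2, 8 and 4 UMIs of BRDT in OVT73 and 2, 3, 0 and 2 in control. Astrocyte-like nuclei gave 3, 3 and 2 in OVT73 and 1, 0, 1 and 0 in control. In normalized CPM the groups overlapped in both classes. OPC-like nuclei ran from 0.66 to 3.79 in OVT73 and from 0 to 2.30 in control. Astrocyte-like nuclei ran from 1.14 to 2.84 in OVT73 and from 0 to 2.08 in control. Both classes are under the filter and no fold is given. Of BRDT UMIs in oligodendrocyte-like nuclei, 48 lay in the CCDC152- and GHR-led cluster and 9 in the ENPP6-led cluster, so the largest share of BRDT lay in another cluster than that of AHSG. In all, 0.588% of oligodendrocyte-like nuclei had a BRDT UMI, against 0.108% of microglia-like nuclei and 54.0% of D1 MSN-like nuclei, whose median depth was 22440 UMIs.

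Because BRDT is high in MSNs, UMIs of MSN markers were counted in the oligodendrocyte-like nuclei as well. Of 10 MSN markers, 9 are in the files and all 9 had UMIs in oligodendrocyte-like nuclei, with a sum of 440 to 510 CPM for OVT73 and 416 to 555 for control. None of the 9 was at 0. Of 5 D1 MSN markers, 4 are in the files and 3 had UMIs there, with ISL1 at 0. Their sum was 64.6 to 77.3 CPM in OVT73 and 55.1 to 104 in control. Per 1000 UMIs of the 9 MSN markers, oligodendrocyte-like nuclei had 1.01, 1.79 and 0.671 BRDT UMIs in OVT73 and 14.02, 19.4, 10.8 and 3.36 in control. In D1 and D2 MSN-like nuclei together the same ratio was 2.07, 6.01 and 6.05 in OVT73 and 5.31, 6.66, 10.6 and 5.24 in control. The OVT73 oligodendrocyte-like nuclei were thus below the ratio of their own library's MSNs, control libraries 1 and 2 were well above it, control library 3 was almost level with it and control library 4 was below it. The 9 MSN markers also summed to 545 to 645 CPM in OVT73 and 535 to 610 in control in OPC-like nuclei. In astrocyte-like nuclei their sums were 1795 to 1924 CPM in OVT73 and 1387 to 1834 in control. Whether these marker UMIs came from MSNs was not tested, so the ratios are a description only. The part of free RNA in these values was not tested.

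In D1 MSN-like nuclei BRDT had 333, 721 and 414 UMIs in OVT73 and 298, 229, 459 and 391 in control. The normalized CPM were 17.6, 53.0 and 50.9 in OVT73 and 36.7, 49.5, 74.5 and 43.7 in control, so only OVT73 library 1 lay below the controls. The log2 difference was −0.34 (SE 0.38, edgeR quasi-likelihood adjusted p = 0.947). In D2 MSN-like nuclei the pattern recurred, with 17.4, 43.4 and 41.0 normalized CPM in OVT73 and 37.7, 44.5, 75.0 and 47.3 in control (log2 difference −0.60, SE 0.34, edgeR adjusted p = 0.910). OVT73 library 1 was the lowest library in both. Leaving it out moved the D1 difference from −0.34 to 0.039 and the D2 difference from −0.60 to −0.27.

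Eccentric MSN-like nuclei were the class where BRDT differed without overlap among those the choice had not used. OVT73 had 29, 18 and 21 UMIs and control 14, 18, 30 and 36. In normalized CPM these were 13.4, 16.7 and 18.9 in OVT73 and 28.9, 19.0, 47.2 and 51.3 in control, with OVT73 library 3 and control library 2 almost level. The means of 16.3 ± 2.79 and 36.6 ± 15.2 gave a log2 difference of −1.17 (SE 0.34), which did not pass the test (edgeR adjusted p = 0.534). Every OVT73 library was below every control library for 4.06% of the genes tested in eccentric MSN-like nuclei. In PV/Th interneuron-like nuclei, where BRDT was highest, OVT73 had 28.6, 64.5 and 85.5 and control 62.9, 71.2, 77.6 and 58.7 normalized CPM (log2 difference −0.24, SE 0.31, edgeR adjusted p = 1.000). OVT73 libraries 1 and 3 were the lowest and the highest of the 7, and the difference was 0.15 without OVT73 library 1. Neuroblast-like nuclei gave 0 BRDT UMIs in all libraries, which allows up to 1.70 CPM.

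**Figure D2:**
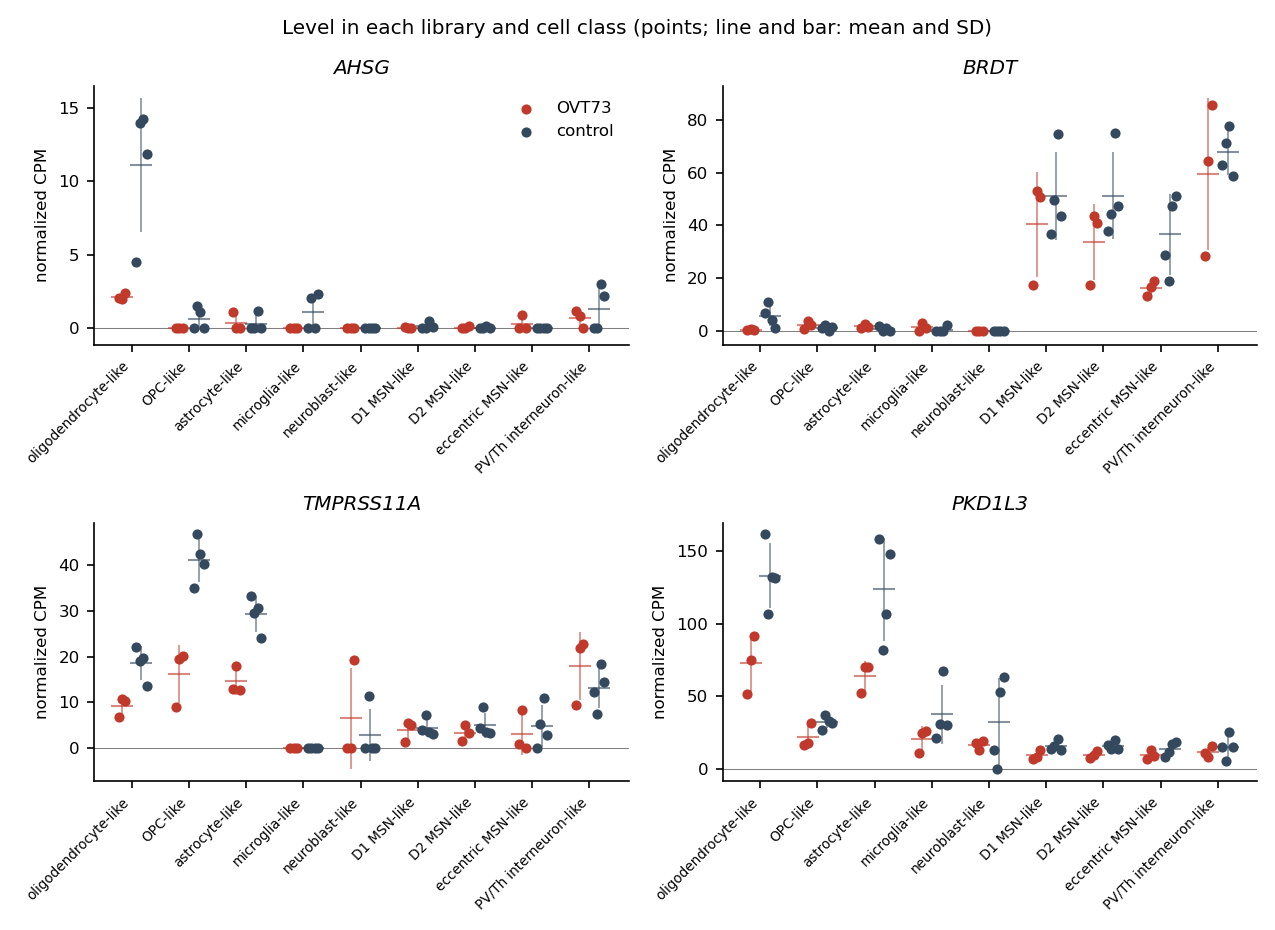
Normalized CPM of each gene in each class, 1 point per library, with a line and bar for the mean and SD of the OVT73 (n = 3) and control (n = 4) libraries. In oligodendrocyte-like nuclei the groups do not overlap for any of the 4 genes, which were chosen as lower there, so this is no support. Of all genes tested in that class, 3.14% had every OVT73 library below every control library. AHSG and BRDT passed the filter there through the control libraries. In D1 MSN-like nuclei, which the choice did not use, BRDT ran from 17.6 to 53.0 in OVT73 and from 36.7 to 74.5 in control.

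TMPRSS11A, the membrane serine protease, was lower in OVT73 in all 3 classes of the choice. In oligodendrocyte-like nuclei the OVT73 libraries gave 65, 38 and 34 UMIs and the controls 64, 82, 84 and 49. The normalized CPM were 6.73, 10.8 and 10.2 in OVT73 and 22.2, 19.1, 19.6 and 13.5 in control. All OVT73 libraries were below all controls, and OVT73 library 2 and control library 4 were nearest to each other. The means were 9.24 ± 2.19 and 18.6 ± 3.65 (log2 difference −1.04).

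OPC-like nuclei, where TMPRSS11A was highest, gave 27, 41 and 32 UMIs in OVT73 and 52, 61, 37 and 57 in control. In normalized CPM OVT73 had 8.93, 19.4 and 20.1, and control 35.01, 46.8, 42.4 and 40.3. The controls lay close together and OVT73 library 1 was below the other OVT73 libraries. The fitted log2 difference was −1.39, from means of 16.2 ± 6.28 and 41.1 ± 4.89. Every OVT73 library was below every control for 3.24% of genes tested in OPC-like nuclei. Leaving out OVT73 library 1 brought the difference to −1.05. OPC markers themselves summed to 25525 to 27900 CPM in these nuclei in OVT73 and 24184 to 25238 in control, without overlap, and their part in the result was not tested.

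Astrocyte-like nuclei gave 34, 19 and 16 TMPRSS11A UMIs in OVT73 and 16, 9, 26 and 13 in control, the controls from fewer nuclei. In normalized CPM they had 12.9, 18.0 and 12.7 in OVT73 and 33.3, 29.5, 30.6 and 24.0 in control, with no overlap. The log2 difference was −1.03, and 2.37% of genes tested in astrocyte-like nuclei had all OVT73 libraries below all controls. In the same nuclei the 10 OPC markers summed to 3203 to 3312 CPM in OVT73 and 3534 to 3851 in control, and astrocyte markers to 11928 to 13100 and 9097 to 11792, both without overlap and with none of the markers in the files at 0. The part of these marker levels in the result was not tested. In the cluster led by DTHD1 and GFAP the groups did not overlap (13.6 ± 6.21 CPM in OVT73, 37.5 ± 11.97 in control). These values rest on 15, 8 and 3 UMIs in OVT73 and 10, 8, 10 and 8 in control. The nearest libraries were OVT73 library 2 at 18.9 CPM and control library 3 at 22.8. In the SLC1A2-led cluster the groups overlapped, with control library 2 at 7.45 CPM.

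Among the 4 oligodendrocyte clusters TMPRSS11A showed no overlap in 3, as a description with no share over all genes beside it. In 1 of these 3, cluster 5, the OVT73 libraries gave only 4, 2 and 1 UMIs. In the OPALIN-led cluster the groups overlapped, with control library 3 at 8.35 CPM. Weighting the 4 clusters equally left oligodendrocyte-like nuclei at 8.80 ± 1.95 CPM, without TMM scaling, in OVT73 and 18.3 ± 2.69 in control, without overlap. Weighting the astrocyte clusters equally gave 14.1 ± 3.22 and 29.7 ± 4.60 CPM on the same scale, also without overlap.

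**Figure D3:**
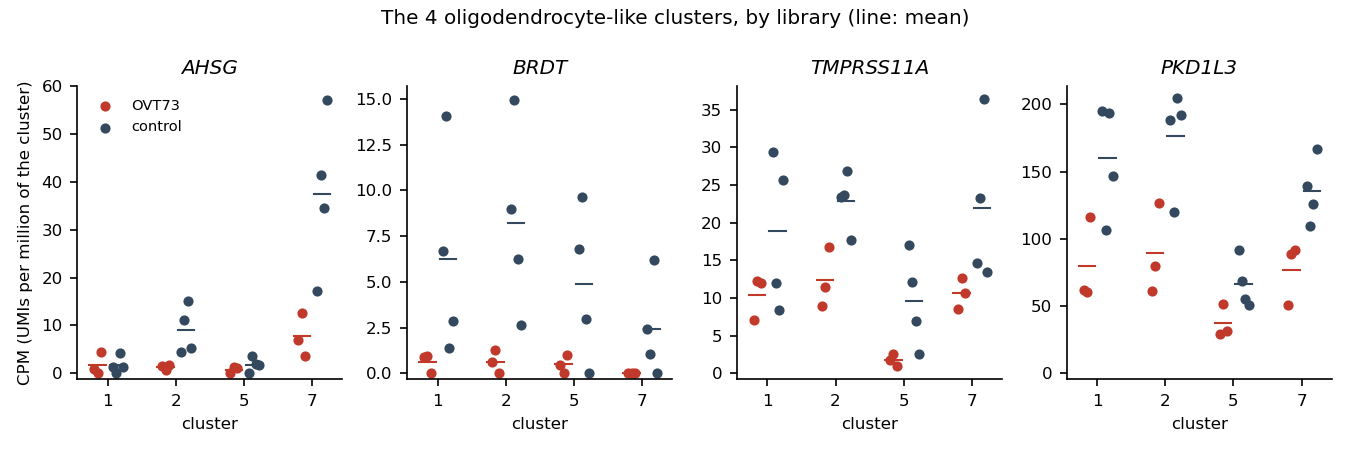
Level of the 4 genes (CPM of the cluster) in the 4 clusters of oligodendrocyte-like nuclei, 1 point per library and a line at each group's mean. Cluster 1 is the OPALIN-led, cluster 2 the CCDC152- and GHR-led and cluster 7 the ENPP6-led one. In cluster 7 AHSG was at 3.54 to 12.7 CPM in OVT73 and 17.1 to 57.2 in control, while in cluster 1 TMPRSS11A overlapped between the groups.

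In the neuronal classes that passed the filter the TMPRSS11A groups overlapped. The SEs there are large, so a missing call does not show equal levels. D1 MSN-like nuclei had 24, 74 and 40 UMIs in OVT73 and 32, 33, 21 and 27 in control, which were 1.27, 5.44 and 4.92 normalized CPM against 3.94, 7.13, 3.41 and 3.02. OVT73 library 1 was the lowest and OVT73 libraries 2 and 3 lay above 3 of the 4 controls. The log2 difference was −0.17 (SE 0.50, edgeR adjusted p = 0.976), and it became 0.29 without OVT73 library 1. D2 MSN-like nuclei had 1.57, 5.03 and 3.17 in OVT73 and 4.35, 8.94, 3.37 and 3.14 in control (log2 difference −0.61, SE 0.48, edgeR adjusted p = 0.912). Without control library 2, the highest, that difference was −0.19. PV/Th interneuron-like nuclei had 9.34, 21.8 and 22.8 in OVT73 and 12.3, 7.50, 18.3 and 14.4 in control. Here the OVT73 mean was the higher one (log2 difference 0.36, SE 0.42, edgeR adjusted p = 1.000), and leaving out OVT73 library 1 or OVT73 library 2 gave 0.73 or 0.15. Microglia-like nuclei had 0 TMPRSS11A UMIs in 2790 nuclei, which allows up to 0.688 CPM or 0.108% of nuclei with a UMI.

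PKD1L3, the polycystin-like membrane protein, gave the most UMIs of the 4 in glia. Oligodendrocyte-like nuclei had 501, 265 and 304 in OVT73 and 466, 459, 566 and 477 in control. In normalized CPM these were 51.9, 75.1 and 91.3 in OVT73 and 161, 107, 132 and 131 in control. OVT73 library 1 was the lowest, and OVT73 library 3 was nearest to the lowest control, library 2. The log2 difference was −0.88, from 72.8 ± 19.8 and 133 ± 22.3 normalized CPM, and it was −0.67 without OVT73 library 1. By cluster, the groups did not overlap in the ENPP6-led cluster (50.5, 88.9 and 91.9 CPM in OVT73, 139, 109, 126 and 166 in control). They overlapped in the other 3 oligodendrocyte clusters. Equal weight to the clusters gave 70.9 ± 20.5 CPM, without TMM scaling, in OVT73 and 135 ± 23.1 in control, with no overlap.

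Astrocyte-like nuclei gave 138, 74 and 88 PKD1L3 UMIs in OVT73 and 76, 25, 91 and 80 in control. They had 52.4, 70.1 and 70.1 normalized CPM in OVT73 and 158, 82.0, 107 and 148 in control, with no overlap and a log2 difference of −0.97. These are the nuclei in which OPC markers were lower and astrocyte markers higher in every OVT73 library than in any control, and the part of that in the PKD1L3 result was not tested. Both astrocyte clusters, parts of the same nuclei, also showed no overlap, as a description with no share over all genes for single clusters. The cluster led by DTHD1 and GFAP was at 54.0 CPM in OVT73 and 96.0 in control. Its nearest libraries were OVT73 library 3 at 63.2 and control library 3 at 70.6. The SLC1A2-led cluster was at 68.9 CPM in OVT73 and 152 in control. In OPC-like nuclei the groups overlapped. OVT73 was at 16.5, 18.0 and 31.5 and control at 26.9, 37.6, 33.3 and 31.8 normalized CPM, a log2 difference of −0.59 that was −0.40 without OVT73 library 1.

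Microglia-like nuclei had 10.99, 25.0 and 26.6 normalized CPM of PKD1L3 in OVT73 and 21.7, 30.9, 67.5 and 30.3 in control. Control library 3 stood above the rest, and OVT73 library 1 was the lowest. The log2 difference of −0.91 (SE 0.43, edgeR adjusted p = 0.998) became −0.48 without control library 3. In D2 MSN-like nuclei OVT73 had 7.42, 9.66 and 12.3 and control 16.9, 13.96, 20.2 and 13.97. The groups did not overlap (log2 difference −0.75, SE 0.23), but the difference did not pass the test (edgeR adjusted p = 0.910), and in this class all OVT73 libraries were below all controls for 2.83% of the genes. In D1 MSN-like nuclei the difference was of the same size (log2 −0.75, SE 0.27, edgeR adjusted p = 0.944) but OVT73 library 3, at 13.5, lay above control library 4, at 13.3.

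In eccentric MSN-like nuclei PKD1L3 had 7.38, 13.0 and 9.01 normalized CPM in OVT73 and 8.26, 11.6, 17.3 and 18.5 in control (log2 difference −0.57, SE 0.39, edgeR adjusted p = 0.826). In PV/Th interneuron-like nuclei it had 11.1, 8.71 and 15.7 in OVT73 and 15.0, 5.62, 25.9 and 15.5 in control (log2 difference −0.46, SE 0.44, edgeR adjusted p = 1.000). Both pairs of groups overlapped. Leaving out OVT73 library 1 brought the eccentric difference to −0.35, and leaving out control library 3 brought the PV/Th interneuron difference to −0.14. Neuroblast-like nuclei gave 42 UMIs and were under the filter, with control libraries 3 and 4 at 53.1 and 63.0, control library 2 at 0 and the OVT73 libraries at 13.5 to 19.3.

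The classes the choice did not use give the tests of these genes. Of 24 pairs of a gene and a class, 12 passed the filter, with no AHSG among them. The OVT73 mean was the lower one in 11 of the 12, and the groups did not overlap in 2, BRDT in eccentric and PKD1L3 in D2 MSN-like nuclei. The share of all genes with a lower OVT73 mean was not computed, so the 11 cannot be weighed against it. Over all genes tested, the class medians of the log2 difference ran from −0.034 (D1 MSN-like) to −0.0077 (PV/Th interneuron-like). PKD1L3 passed the filter in eccentric MSN-like and PV/Th interneuron-like nuclei through the control libraries, where its mean was higher. The shares of all genes tested with every OVT73 library below every control were 2.44% in microglia-like, 2.5% in D1 MSN-like and 2.42% in PV/Th interneuron-like nuclei, where no pair was without overlap. The 12 pairs share libraries and 3 genes, so they are not 12 independent comparisons.

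Of the 12 pairs, 0 were called by edgeR's quasi-likelihood test at an adjusted p under 0.05, and 3 had an unadjusted p under 0.05. DESeq2 called 0 of the 21 pairs it tested (smallest adjusted p 0.998). Over all genes, edgeR called 0% in microglia-like, D1 MSN-like, D2 MSN-like and PV/Th interneuron-like nuclei and 0.0134% (1 of 7461 genes) in eccentric MSN-like nuclei. Before adjustment, p was under 0.05 for 537 of 7461 genes in eccentric MSN-like nuclei and for 324 of 7652 in PV/Th interneuron-like nuclei. The same count was 541 of 11982 for D2 MSN-like nuclei, 494 of 12375 for D1 MSN-like nuclei and 279 of 6668 for microglia-like nuclei. DESeq2 called 1, 2, 5, 2 and 0 genes in these classes, in that order.

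A single value per gene and library was taken as the mean log2 normalized CPM over the 6 classes the choice did not use, with equal weight to each class. For PKD1L3 it was 3.83 ± 0.288 in OVT73 and 4.35 ± 0.534 in control, a difference of −0.51 (two-sided exact permutation p = 0.257). For BRDT it was 4.22 ± 0.504 and 4.57 ± 0.237, a difference of −0.35 (exact permutation p = 0.314). For TMPRSS11A it was 2.49 ± 0.561 and 2.61 ± 0.333, a difference of −0.12 (exact permutation p = 0.771). The AHSG value rests on 18 UMIs and differed by −0.13 (exact permutation p = 0.543). With so few UMIs it is set largely by the prior count of 2, so the test cannot decide for AHSG. The BRDT mean gives equal weight to neuroblast-like nuclei with 0 UMIs and microglia-like nuclei with 4. The TMPRSS11A mean likewise includes microglia-like nuclei with 0 UMIs and neuroblast-like nuclei with 6. The 35 ways to choose 3 of 7 libraries allow no exact p below 0.0286. None of the 4 differences passed this test.

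In these classes OVT73 library 1 was most often the lowest library. It was the lowest in 10 of the 12 pairs, whereas among all genes tested it was the lowest for 8.86% in microglia-like, 16.3% of those in D1 MSN-like, 14.4% of those in D2 MSN-like, 10.1% in eccentric MSN-like and 10.0% in PV/Th interneuron-like nuclei. Over all 20 pairs that passed, the 3 classes of the choice included, it was the lowest in 15. Among all genes tested it was the lowest for 13.3% in oligodendrocyte-like, 14.2% in OPC-like and 9.23% in astrocyte-like nuclei. Control library 3 was the highest in 6 of the 12, and the share of all genes highest in that library was not computed. Without OVT73 library 1 the mean over the 6 classes differed by −0.36 for PKD1L3, −0.06 for BRDT and 0.19 for TMPRSS11A. Without control library 2 the TMPRSS11A difference was 0.02. OVT73 library 1 also had the most UMIs, with an oligodendrocyte-like median of 2199 per nucleus against 1449 to 1776 in the other libraries. In the study's mapping summary it had the lowest share of antisense reads and the highest share mapped to the transcriptome. Control library 3 had the highest antisense and the lowest transcriptome share. The part of this depth and of these mapping shares in the results was not tested.

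**Figure D4:**
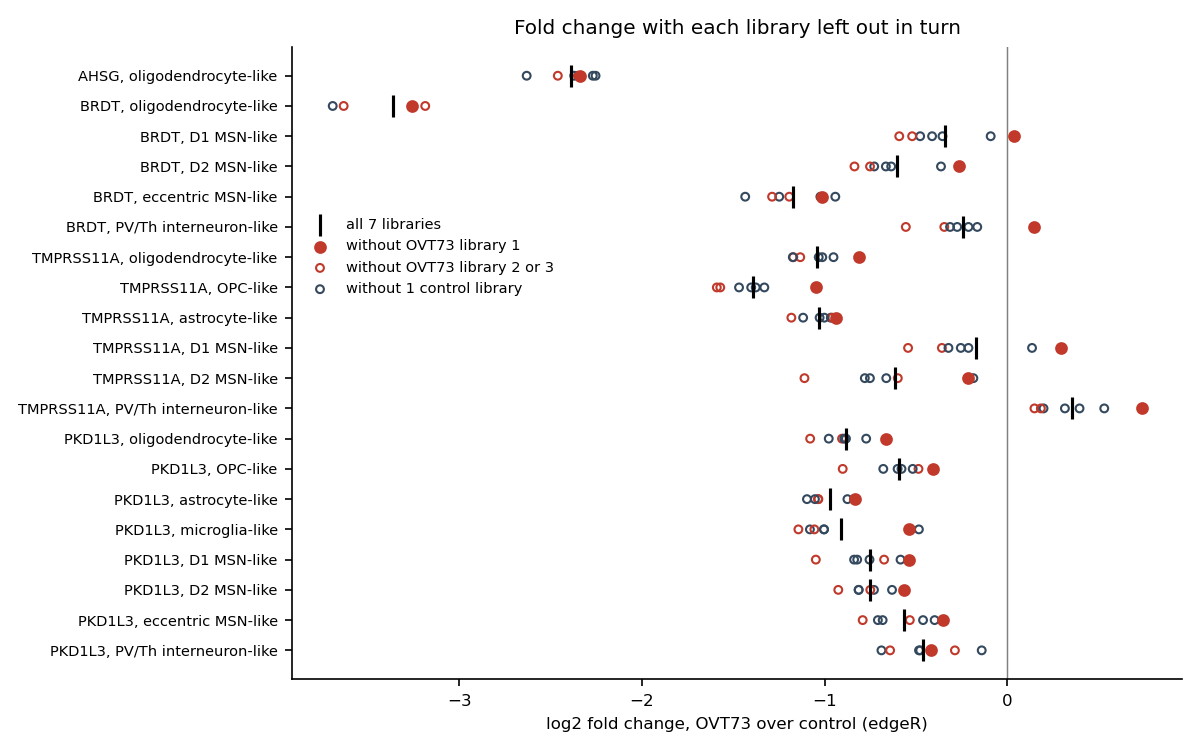
Log2 difference between OVT73 and control for each gene and class that passed the filter, with all libraries and with each library left out in turn. In oligodendrocyte-like nuclei AHSG ran from −2.63 to −2.25 and TMPRSS11A from −1.17 to −0.81. The genes were chosen as lower in that class, so a kept sign there is no support. In D1 MSN-like nuclei, which the choice did not use, BRDT ran from −0.59 to 0.039.

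In the 3 classes of the choice no fit without 1 library turned a difference. This is a description only, since the choice used these classes. For BRDT in oligodendrocyte-like nuclei only 4 such fits exist, from −3.69 to −3.19. Without control library 1, 2 or 3 BRDT did not pass the filter. In oligodendrocyte-like nuclei AHSG ran from −2.63 (without control library 1) to −2.25 (without control library 3) and TMPRSS11A from −1.17 to −0.81. PKD1L3 ran from −1.08 to −0.67 there and from −1.10 to −0.83 in astrocyte-like nuclei. TMPRSS11A in OPC-like nuclei ran from −1.59 (without OVT73 library 2) to −1.05 (without OVT73 library 1).

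The share of nuclei with a UMI was compared at equal depth by thinning each nucleus to 1000 UMIs, which left out 501 of 7377 OVT73 and 1220 of 7759 control oligodendrocyte-like nuclei. In the 3 classes of the choice these shares are a description and no support, with no share over all genes beside them. After thinning, AHSG was seen in 0.133% of OVT73 and 1.15% of control oligodendrocyte-like nuclei (unthinned, 0.387% and 1.92%). TMPRSS11A was seen in 0.882% and 1.76% (unthinned, 1.59% and 2.67%) and PKD1L3 in 6.95% and 12.7% (unthinned, 12.5% and 20.1%). For PKD1L3 the thinned groups overlapped, with control library 2 at 8.98% and OVT73 library 3 at 9.22%. BRDT was seen in 0.028% of OVT73 and 0.603% of control nuclei (unthinned, 0.115% and 1.03%). Its nearest libraries were almost level, OVT73 library 2 at 0.055% and control library 4 at 0.060%, with 1 nucleus each. In microglia-like nuclei thinned the same way, AHSG and TMPRSS11A were in 0% of nuclei of either group, and PKD1L3 was in 2.40% of OVT73 and 3.76% of control nuclei. In OPC-like nuclei TMPRSS11A was in 1.48% of OVT73 and 4.03% of control nuclei (unthinned, 5.46% and 9.69%). In astrocyte-like nuclei PKD1L3 was in 7.03% and 12.4%, but control library 2, at 4.35%, lay below the OVT73 libraries.

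Mitochondrial UMIs, which come from outside the nucleus, overlapped between the groups. Their median share in oligodendrocyte-like nuclei was 0.65%, 1.61% and 1.80% in the OVT73 libraries and 0.56%, 0.70%, 0.74% and 2.30% in the controls. OPC markers in oligodendrocyte-like nuclei summed to 828 to 1019 CPM in OVT73 and 600 to 1051 in control, with all 10 markers detected. In astrocyte-like nuclei oligodendrocyte markers ranged from 895 to 1142 CPM in OVT73 and from 200 to 3568 in control. In the 3 classes of the choice the groups overlapped for every marker list but 3, OPC and astrocyte markers in astrocyte-like nuclei and OPC markers in OPC-like nuclei. The part of these values in the results was not tested.

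Neighbouring genes on the chromosome, read from the order of the RefSeq annotation of another sheep assembly, were looked at in the same nuclei. FETUB, the fetuin next to AHSG, gave 4 UMIs, all in D1 MSN-like nuclei. DNAJB11, on the other side of AHSG, is a chaperone of the endoplasmic reticulum. In oligodendrocyte-like nuclei it was at 25.7 ± 0.168 normalized CPM in OVT73 and 29.8 ± 3.77 in control, without overlap (log2 difference −0.22, SE 0.15, edgeR adjusted p = 0.877). In that class 3.14% of all genes tested had every OVT73 library below every control. TGFBR3, beside BRDT, was level there at 33.4 and 33.5, and EPHX4, on the other side, was at 12.3 ± 4.16 and 22.2 ± 7.73 (log2 difference −0.86, SE 0.32, edgeR adjusted p = 0.877) with overlapping groups. DHODH, beside PKD1L3, was at 8.98 and 7.96. IST1, which overlaps PKD1L3 in that annotation, was at 27.7 ± 2.83 in OVT73 and 22.5 ± 2.22 in control (log2 difference 0.30, SE 0.15, edgeR adjusted p = 0.877). How reads shared by overlapping genes were assigned is not given in the sources used here, so PKD1L3 counts are uncertain to that extent. TMPRSS11A had no entry under that symbol.

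The relatives of the 4 genes were taken as lists of 88 further genes, 75 of them in the files, and gave 160 tests of a gene in a class, of which edgeR called 0. Among 24 hepatocyte plasma protein genes in the files, the kin of AHSG by tissue, 8 were tested in oligodendrocyte-like nuclei, 7 with a log2 difference below 0. Their median was −0.23, while that of all genes tested was −0.02. Of the 8, 2 were lower and 1 was higher in OVT73 without overlap, where 3.14% of all genes tested were lower without overlap. TF, transferrin, which oligodendrocytes are known to make, was 1 of the 2. It was at 888 ± 7.98 normalized CPM in OVT73 and 1037 ± 73.2 in control in that class (log2 difference −0.22, edgeR adjusted p = 0.877). HPX, hemopexin, was at 69.1 and 110 with overlapping groups (log2 difference −0.69, edgeR adjusted p = 0.877).

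For BRDT the list of BET genes held BRD2 and BRD3, with 1791 and 898 UMIs, and neither was called in any class tested. Of 20 male germ cell genes in the files 7 were tested in oligodendrocyte-like nuclei, with a median of −0.44 and 4 of 7 below 0. The most abundant were TEX11 and TEX14, meiosis and germ-cell bridge genes, at log2 differences of 0.25 and 0.40 there, the opposite sign to BRDT. Among the type II transmembrane serine proteases 4 were tested beside TMPRSS11A, all 4 below 0 with a median of −0.55. TMPRSS11D, an airway protease of the same subfamily, was at 16.3 ± 6.30 and 27.8 ± 2.74 normalized CPM in oligodendrocyte-like nuclei without overlap (log2 difference −0.82, SE 0.26, edgeR adjusted p = 0.828). In OPC-like nuclei it was at 26.5 ± 15.3 and 52.3 ± 20.3 with overlap (log2 difference −1.04, SE 0.54, edgeR adjusted p = 0.756). Whether reads could be shared between TMPRSS11A and TMPRSS11D was not checked, so both values are uncertain to that extent.

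For PKD1L3 the polycystin genes gave 3 tests in oligodendrocyte-like nuclei with a median of −0.10. PKD2, a cation channel of primary cilia and the endoplasmic reticulum, was at 452 and 395 normalized CPM (log2 difference 0.19) and PKD2L2 at 168 and 236 (log2 difference −0.50), neither called. Of 10 taste cell genes in the files, 0 passed the filter in oligodendrocyte-like nuclei and 2 had no UMI in any kept nucleus. ENTPD2 and PLCB2 were the most abundant of these, with 399 and 363 UMIs.

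The genes most like each of the 4 were named by Pearson's r over 63 sums, those of 9 classes in 7 libraries, among 13310 genes with at least 200 UMIs. The sums share libraries, depth and cell class, so r is a description of where a gene is found. For AHSG they were GJB1 (0.81), a gap junction protein of myelinating cells, DPYSL2 (0.78) and IL12RB1 (0.78). For BRDT they were CAMK2A (0.92), a kinase abundant in forebrain neurons, CA7 (0.92) and PLCH2 (0.92). For TMPRSS11A they were TMPRSS11D (0.84), ADGRA1 (0.79) and IL17RD (0.79). PKD1L3 was most like TESK2 (0.84), the unnamed feature ENSOARG00020019712 (0.83) and DMTF1 (0.82).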

How the data were processed

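Nuclei of the sheep striatum were sequenced with the 10x 3′ v3.1 chemistry. The values are UMI counts per gene and nucleus, which the authors made with Cell Ranger 7.0.0 (STAR 2.7.2a) on Oar_rambouillet_v1.0 with the Ensembl annotation and deposited as filtered matrices, 1 per library. The setting for intronic reads is not named, but in the study's mapping summary the share of reads mapped to the transcriptome exceeded the exonic share, as it does where Cell Ranger counts intronic reads. Symbols are those the files pair with each feature.

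Barcodes were kept (33957) if they had 200 to 7500 genes with a UMI and no more than 5% of UMIs from 35 mitochondrial features. The 4% of each library with the highest scrublet scores were removed as doublets (1358), since the automatic threshold marked only 129. The 4 genes and the related lists were left out of the variable genes used to cluster, unless they were cell type markers. The components were corrected for library with a Harmony routine before neighbours were found. Leiden clustering (scanpy 1.11.5, igraph 0.11.9, 3000 variable genes, 30 components, 20 neighbours) gave 28 clusters, of which 17 were named from markers by a rule set after marker profiles were seen. The 2498 nuclei of the other 11 clusters were left out of comparisons.

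UMIs were summed per library and class and fitted across all genes with edgeR 4.0.16 in R 4.3.3 (TMM, filterByExpr, robust quasi-likelihood, two-sided, Benjamini-Hochberg adjustment over all genes of a class, threshold 0.05), a method tested on simulated data. DESeq2 1.42.0 was an alternative, beside no filter, no TMM scaling, equal numbers of nuclei, another clustering resolution, another prior count and leaving out each library. Mean levels used a prior count of 2 and exact permutation. Limits at a count of 0 are 3 counts and cover counting error only. Libraries pool sheep that were not separated here, so p-values measure the spread between libraries. The text names the 4 genes, the 2 most abundant genes of each related list and any called there, the nearest neighbours and the 3 most similar genes. The 4 genes, the lists and the tests were chosen with earlier results of these data known.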

Additional observations from a re-analysis of the deposited data

How the results depend on the processing

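The limits of these values are counts: AHSG rests on 257 UMIs and BRDT in oligodendrocyte-like nuclei on 99, and libraries of 1 sheep and of 2 sheep were treated alike. The OVT73 and control libraries were made from different sheep, so the comparisons are unpaired. Of 273 refitted log2 differences 268 kept their sign. That count includes the 3 classes of the choice, where the genes had been chosen as lower, so a kept sign there is no support. The 5 that changed sign were BRDT and TMPRSS11A in D1 MSN-like and BRDT in PV/Th interneuron-like nuclei. TMPRSS11A in D1 MSN-like nuclei went from −0.17 to 0.24 when only control libraries of 2 sheep were used, an alternative chosen after seeing the data. Leaving out each library in turn gave −0.54 to 0.29 for TMPRSS11A and −0.59 to 0.039 for BRDT in D1 MSN-like nuclei, −0.56 to 0.15 for BRDT in PV/Th interneuron-like nuclei, and −0.34 to 0.19 for the mean level of TMPRSS11A over 6 classes. The cause was not tested.

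Counts of genes called by edgeR, over all genes, were 1 in OPC-like nuclei, 1 in eccentric MSN-like nuclei and 0 in the other classes tested. Without the filter they were 1 in oligodendrocyte-like, 31 in OPC-like, 14 in astrocyte-like, 31 in microglia-like, 1 in D2 MSN-like, 51 in eccentric MSN-like, 2 in neuroblast-like and 34 in PV/Th interneuron-like nuclei. DESeq2 called 1 in oligodendrocyte-like, 9 in OPC-like, 1 in astrocyte-like, 2 in D1 MSN-like, 5 in D2 MSN-like and 2 in PV/Th interneuron-like nuclei. Without TMM scaling there were 2 in OPC-like and 0 in eccentric MSN-like nuclei. With equal numbers of nuclei there were 1 in D2 MSN-like and 0 in eccentric MSN-like nuclei. With control libraries of 2 sheep there were 8 in eccentric MSN-like and 1 in PV/Th interneuron-like nuclei. Leaving out each library gave 0 to 1 in oligodendrocyte-like, 0 to 2 in OPC-like, 0 to 1 in D2 MSN-like, 0 to 1 in eccentric MSN-like and 0 to 1 in neuroblast-like nuclei. None of the 4 genes was called in a class the choice did not use under any of these settings.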

Other observations

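The 4 genes were also counted outside the named classes. In the 2498 nuclei of unnamed clusters PKD1L3 had 333 UMIs, at 13.0, 21.7 and 12.4 CPM in OVT73 libraries 1 to 3 and 38.2, 19.8, 42.5 and 50.2 in control libraries 1 to 4, with control library 2 below OVT73 library 2. BRDT had 217 UMIs, TMPRSS11A 85 and AHSG 20 in the same nuclei. The 1315 barcodes outside the limits on genes and mitochondrial UMIs held 173 UMIs of PKD1L3, 101 of BRDT, 56 of TMPRSS11A and 5 of AHSG. No comparison of the groups was tested in these nuclei.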
